A study of Mus musculus with 2 samples.

Results

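Periportal, or zone 1, liver sinusoidal endothelial cells (LSECs) were picked out of single-cell RNA-sequencing of liver non-parenchymal cells by their own transcripts. A cell was a member if its Kdr, Ptprb and Flt4 transcripts reached 25 unique molecular identifiers (UMIs, 1 for each captured RNA molecule) per 10000, and if it held at least 3 UMIs of the periportal genes Msr1, Efnb2 and Dll4. It also had to hold no more than 1 UMI of Kit and Wnt2, 1 of the portal vessel genes Gja5 and Nrg1, and 1 of the central vein genes Rspo3, Wnt9b and Selp. Cells with over 2 UMIs of the stellate genes Lrat and Reln, or over 3 of Cd79a, Cd3e and Cd5l, were left out. By this rule 634 of the 2901 endothelial cells of the normal library were periportal, and 369 of the 1613 of the fibrosis library. The 2 tables held 8130 and 6437 cells, of which 7471 and 6132 remained after cells with 10% or more mitochondrial UMIs or with 200 or fewer genes were removed. The values of the genes named in the rule chose the cells and are given below as a description only.

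The study asked how liver cells change in fibrosis, and compared 1 library from a C57BL/6 mouse in the quiescent state with 1 from a C57BL/6 mouse with fibrosis induced by carbon tetrachloride (CCl4). Both were males, described as 8 weeks old at injection. One was given olive oil and the other CCl4, as 15% in olive oil by the study's protocol, intraperitoneally, 2 times a week for 6 weeks, and livers were taken 48 h after the last injection. Cells came from collagenase-digested liver after low-speed and density-gradient centrifugation, which remove hepatocytes and debris. With 1 library for each condition no replicate spread exists, so no difference between conditions or cell sets was tested. The 95% intervals given after values cover counting error only, and a difference between libraries cannot be told apart from a difference between the 2 mice or preparations.

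The liver sinusoid is lined by fenestrated endothelium, and blood flows along it from the portal tract to the central vein. The endothelium is zonated along that path: at the portal end it carries arterial-type genes of the ephrin and Notch pathways, in which the membrane-bound ligand Dll4 engages Notch receptors on neighbouring cells, whereas Kit and Wnt2 mark the midlobular and pericentral sinusoid. These cells clear waste from blood through scavenger receptors such as Stab1, Stab2 and Mrc1, and in fibrosis they can lose their fenestrae, a change called capillarization.

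The members held a median of 5473 UMIs and 2617.5 genes in the normal library and 7204 UMIs and 3187 genes in the fibrosis library. They were compared with Kit/Wnt2 endothelial cells, chosen as the mirror image of the rule (3 or more UMIs of Kit and Wnt2, up to 1 of Msr1, Efnb2 and Dll4): 408 normal and 126 fibrosis cells, with medians of 5228.5 and 6616 UMIs. RNA set free from broken cells enters every droplet, so each value was also read in B and T cells, 1354 normal and 655 fibrosis cells with medians of 3569 and 2728 UMIs, which should lack endothelial RNA. These were cells with 3 or more UMIs of Cd79a, Cd79b, Cd3e, Cd3d and Cd3g and less than the endothelial limit of Kdr, Ptprb and Flt4. The set held deep droplets, up to 68200 and 63820 UMIs, and in fibrosis its summed macrophage (72.0) and stellate and fibroblast markers (39.1) exceeded its B and T cell markers (30.9), so it is no clean measure of free RNA. Cells above the upper quartile of UMIs held 53.8% and 65.1% of its UMIs. Results that rest on it are therefore also given for the cells up to the upper quartile of UMIs (1015 normal, 491 fibrosis), called the shallower B and T cells, a choice made after seeing the data. In fibrosis these held 62.8, 37.1 and 11.6 of B and T cell, macrophage, and stellate and fibroblast markers. Levels are summed UMIs of a gene per 10000 UMIs of the cell set. The 2 libraries shared 15 cell barcodes, and no barcode was a member in both.

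Msr1, a class A scavenger receptor, carried most of the choice: 609 normal members (96.1%) and 360 fibrosis members (97.6%) held a Msr1 UMI. Msr1 was also higher in fibrosis, by 2 times or more, in Kit/Wnt2 cells and in B and T cells. Of the members, 376 of 634 normal and 46 of 369 fibrosis cells held no more than 1 UMI of the macrophage genes Clec4f, Vsig4, C1qa and C1qb. The part of macrophage RNA in the Msr1 UMIs was not tested. The ephrin ligand Efnb2 was seen in 436 and 251 members, the Notch ligand Dll4 in 469 and 268, and all 3 genes together in 307 and 183. Members held a median of 7 and 8 UMIs of the 3 genes. At the edge of the rule, 89 normal and 49 fibrosis members held exactly 3 such UMIs, and 110 and 72 cells that met the other limits held 2. A further 113 normal and 88 fibrosis cells missed membership by having 2 UMIs of Kit and Wnt2. In the member sum Msr1 stood at 9.16 normal and 8.41 fibrosis UMIs per 10000, Efnb2 at 3.12 and 2.18, and Dll4 at 2.90 and 2.16.

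The 3 periportal markers that the rule did not use are given beside the label. Ntn4, which encodes the secreted laminin-related protein netrin-4, stood at 9.59 UMIs per 10000 in normal periportal cells (9.27 to 9.92) and 7.13 in fibrosis (6.82 to 7.46), against 1.34 and 1.74 in Kit/Wnt2 cells and 0.307 and 0.384 in B and T cells. Adam23, a catalytically inactive member of the ADAM family, stood at 11.3 and 10.6 in periportal cells and at 5.08 and 7.69 in Kit/Wnt2 cells. Esm1, which encodes the proteoglycan endocan, stood at 0.60 and 1.74 in periportal cells and at 0.0261 and 0.186 in Kit/Wnt2 cells. All 3 were thus higher in periportal than in Kit/Wnt2 cells of both libraries, with ratios of 7.16 (6.37 to 8.08) and 4.10 (3.47 to 4.87) for Ntn4, 2.23 and 1.37 for Adam23, and 23.0 and 9.38 for Esm1. Adam23 in the fibrosis library was 1.37 times higher (1.26 to 1.5) and did not reach 2 times. These markers were given with the label, and the Kit/Wnt2 cells were chosen as the mirror image of the rule. Genes that vary with the rule's genes are not independent of that choice. The values therefore describe the 2 sets and do not test the label.

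The periportal markers were also read in endothelium of larger vessels. In cells with 3 or more UMIs of Gja5 and Nrg1 (233 normal, 80 fibrosis), Ntn4 was higher than in the members, at 13.4 and 13.3 UMIs per 10000, whereas Adam23 was at 1.62 and 2.16 and Esm1 at 0.0282 and 0.174. In cells with 3 or more UMIs of Rspo3, Wnt9b and Selp (322 and 126 cells) Ntn4 was at 2.42 and 2.96. Ntn4 was thus shared with the Gja5/Nrg1 cells, and Adam23 and Esm1 were highest in the members of these 5 cell sets. Esm1 was also unevenly spread over the members: after every cell was thinned to 2000 UMIs, which left out 13 normal and 12 fibrosis members, 6.76% of normal and 19.0% of fibrosis members held an Esm1 UMI, against 0.615% and 3.55% of B and T cells. Without thinning these shares were 10.9% and 30.1% of members and 1.18% and 6.26% of B and T cells. Ntn4 was seen in 73.4% and 64.7% of thinned members and in 4.23% and 9.04% of thinned B and T cells, and unthinned in 87.9% and 90.5% of members and 9.38% and 14.7% of B and T cells.

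**Figure D1:**
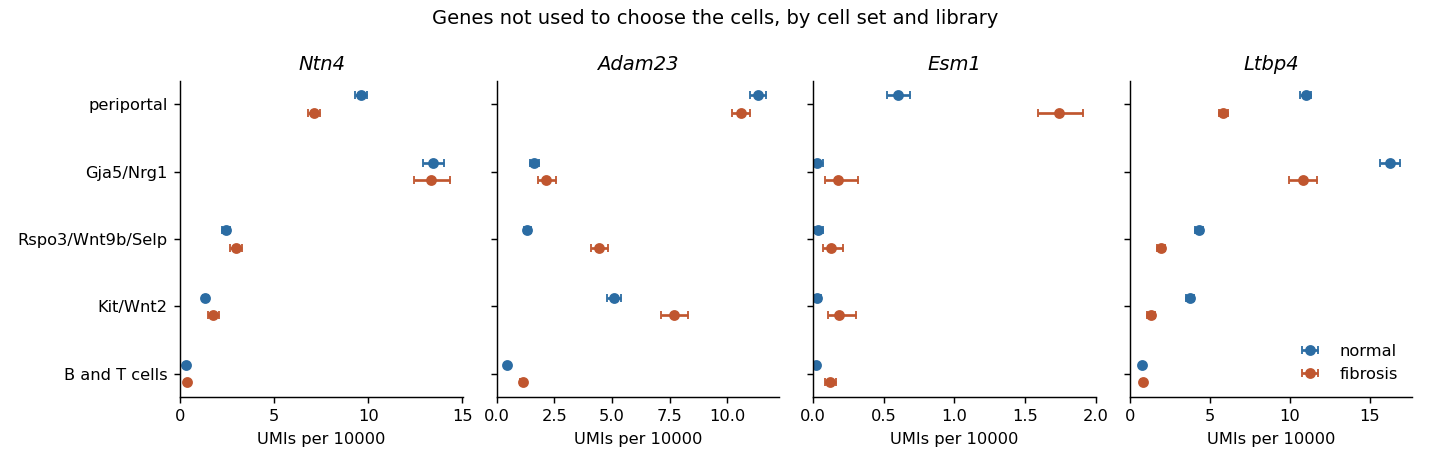
Levels of Ntn4, Adam23, Esm1 and the latent TGF-beta binding protein gene Ltbp4 (UMIs per 10000, horizontal axes) in 5 cell sets of the normal (blue) and fibrosis (orange) library, 1 library each; bars are 95% Poisson intervals. Adam23 and Esm1 were highest in periportal cells, and Ntn4 and Ltbp4 were highest in Gja5/Nrg1 cells, where Ntn4 reached 13.4 and 13.3.

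In GENCODE vM21 on mm10 (GRCm38), Adam23 (ENSMUSG00000025964.15) lies on the plus strand at chr1:63445891-63596276, Ntn4 (ENSMUSG00000020019.4) on the plus strand at chr10:93640681-93747207 and Esm1 (ENSMUSG00000042379.8) on the plus strand at chr13:113209659-113218098. Of the genes that chose the cells, Msr1 (ENSMUSG00000025044.16) and Efnb2 (ENSMUSG00000001300.16) lie on the minus strand of chromosome 8, at chr8:39581685-39642673 and chr8:8617434-8661242, and Dll4 (ENSMUSG00000027314.6) on the plus strand at chr2:119325784-119335962. The RefSeq promoters of the 3 held-out markers are shown because their RNA was higher with the rule's genes although the rule did not use it. Each runs 5′ to 3′ on the plus strand over 300 bases of GRCm38.p6 around the annotated start, with the letters of the binding core of the Notch transcription factor RBPJ (TGGGAA, either strand) and of the ETS factors (CCGGAA, either strand) in capitals where present.
Adam23, chr1:63445641-63445940: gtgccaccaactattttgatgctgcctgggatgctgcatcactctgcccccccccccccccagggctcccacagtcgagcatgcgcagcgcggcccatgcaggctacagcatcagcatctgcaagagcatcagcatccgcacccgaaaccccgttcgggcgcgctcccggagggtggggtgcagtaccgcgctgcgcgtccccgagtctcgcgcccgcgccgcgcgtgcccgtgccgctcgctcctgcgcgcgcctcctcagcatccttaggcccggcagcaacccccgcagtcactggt
Esm1, chr13:113209409-113209708: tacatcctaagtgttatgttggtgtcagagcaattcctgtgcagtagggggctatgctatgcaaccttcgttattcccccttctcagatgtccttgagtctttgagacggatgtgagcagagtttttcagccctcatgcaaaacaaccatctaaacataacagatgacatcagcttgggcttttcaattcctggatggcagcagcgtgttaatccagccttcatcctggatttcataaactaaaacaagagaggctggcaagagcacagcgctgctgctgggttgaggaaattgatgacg
Ntn4, chr10:93640799-93641098: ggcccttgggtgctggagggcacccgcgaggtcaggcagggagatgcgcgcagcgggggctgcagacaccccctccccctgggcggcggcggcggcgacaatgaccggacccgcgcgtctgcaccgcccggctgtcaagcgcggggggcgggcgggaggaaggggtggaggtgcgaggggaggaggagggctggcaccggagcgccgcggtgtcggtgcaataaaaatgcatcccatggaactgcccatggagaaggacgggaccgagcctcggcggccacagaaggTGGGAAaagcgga
The RBPJ letters occurred in 1 of these 3 windows (Ntn4) and in 25.6% of 32817 promoter windows of the same length. The ETS letters occurred in none of the 3 and in 14.9% of all windows. A match is a description of these letters and not of a bound site.

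Ntn4 and Adam23 were graded along the UMIs that chose the cells. Among endothelial cells that met the other limits, Ntn4 stood at 1.86 UMIs per 10000 in normal cells with 0 UMIs of Msr1, Efnb2 and Dll4, at 4.41 in those with 3 and at 11.1 in those with 6 or more. The same bins of the fibrosis library stood at 1.84, 3.73 and 7.97. Adam23 ran from 5.23 to 11.8 in the normal and from 5.61 to 10.7 in the fibrosis library between the end bins. Cells with 3 such UMIs, just inside the limit, lay near those with 2, at 4.41 and 3.43 for Ntn4 in the normal and 3.73 and 3.76 in the fibrosis library. Esm1 was uneven: normal cells stood at 0.0800 with 0 such UMIs, 0.240 with 3 and 0.646 with 6 or more, and fibrosis cells at 0.601, 0.404 and 1.94. The highest bin for Esm1 was that of 72 fibrosis cells with 2 such UMIs, just outside the limit, at 2.82 (2.17 to 3.61), above the 1.74 of all fibrosis members. Depth rose along the same bins, from a median of 1583 to 6147 UMIs in normal and from 1112 to 7743.5 in fibrosis cells, and its part in the gradient was not tested. A rise between the end bins was not particular to the periportal markers. The sinusoidal gene Clec4g went from 14.7 to 23.3 in the normal and from 9.61 to 21.5 in the fibrosis library. Mrc1 went from 13.1 to 17.4 and from 15.6 to 20.4. Stab2 did not rise in the normal library and went from 6.68 to 9.81 in fibrosis. Members chosen by Msr1 alone, with no UMI of Efnb2 or Dll4 (55 normal, 39 fibrosis) stood at 5.49 and 5.76 for Ntn4, and the few with 3 or more UMIs of Efnb2 and Dll4 but no Msr1 (25 and 9) at 4.52 and 4.71. All members with 3 or more UMIs of Efnb2 and Dll4, most of which also held Msr1, stood at 10.8 and 8.08, with median depths of 6126.5 UMIs in the normal library against 3890 and 3976 in the 2 smaller groups. Adam23 lay between 9.29 and 12.5 in all of these groups.

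**Figure D2:**
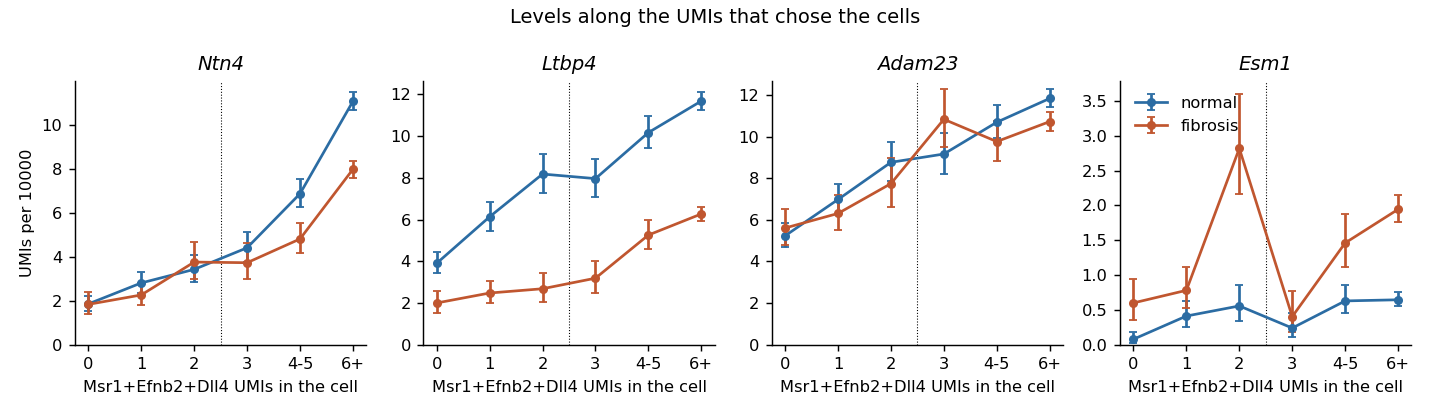
Levels of Ntn4, Ltbp4, Adam23 and Esm1 (UMIs per 10000, vertical axes) in endothelial cells binned by their raw UMIs of Msr1, Efnb2 and Dll4 (horizontal axes; dotted line, the limit of 3 UMIs), with 95% Poisson intervals. Ntn4 rose from 1.86 to 11.1 in the normal and from 1.84 to 7.97 in the fibrosis library, while Ltbp4 was lower in fibrosis in every bin and Esm1 peaked in fibrosis cells with 2 UMIs, outside the limit.

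Periportal and Kit/Wnt2 cells shared most of their transcriptome and differed at few genes. A gene is called past the limit here if its ratio was at least 2 or at most 0.5, its 95% interval left out 1, and it reached at least 0.2 UMIs per 10000 in either set. In the normal library 127 of 7668 genes (1.66%) were higher in periportal cells by this rule and 149 (1.94%) lower, and in the fibrosis library 119 of 7510 (1.58%) were higher and 118 (1.57%) lower. The even split in fibrosis rested on the processing. It was 160 higher and 81 lower in UMIs per cell, 238 and 58 without the 3 cells of each set that held most of a gene's UMIs, 112 and 340 with a mitochondrial limit of 5%, and 44 and 154 without cells holding macrophage UMIs. Of 7006 genes that could be read in both libraries, 56 were higher in both, which is 52.3% of the 107 normal and 56.6% of the 99 fibrosis genes. A further 42 were lower in both, 41.6% of 101 and 57.5% of 73, and 1 gene went opposite ways. The 18 genes of the rule are left out of these counts, but genes that vary with them are not independent of the choice, so the counts describe how the 2 sets differ and test nothing.

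Beyond Ntn4 and Esm1, the 12 genes furthest above Kit/Wnt2 cells in both libraries included Adgrg6, Mecom, Vegfc and Efnb1. Adgrg6, an adhesion G protein-coupled receptor, stood at 2.09 and 1.36 UMIs per 10000 in normal and fibrosis periportal cells and at 0.0348 in the Kit/Wnt2 cells of either library, so it was 60.0 (30.3 to 139) and 39.0 (13.2 to 190) times higher in periportal cells. The size of these ratios rests on a Kit/Wnt2 level below the 0.127 and 0.112 of B and T cells. Mecom, a transcription factor of arterial endothelium, stood at 1.93 and 1.75 against 0.0869 and 0.0812. Vegfc, a growth factor for the receptor encoded by Flt4, stood at 0.724 and 0.565 against 0.0130 and 0.0696, ratios of 55.5 (18.8 to 271) and 8.11 (3.64 to 22.4). Efnb1, an ephrin ligand like Efnb2, stood at 8.48 and 6.19 against 1.27 and 2.11, which is 6.66 and 2.93 times. Adgrg6, Mecom, Vegfc and Efnb1 were higher still in Gja5/Nrg1 cells, where Efnb1 reached 17.9 and 18.1 and Adgrg6 12 and 10.4. These 4 genes thus followed the order Gja5/Nrg1, periportal, Kit/Wnt2 in each library, but for Vegfc the fibrosis ratio turned to 0.756 without cells holding macrophage UMIs, a setting that left 10 Kit/Wnt2 cells.

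The other genes named by the rule for this contrast were Slc45a4, Galnt15, Armcx6, Ltbp4, Acer2 and Ddit4. Slc45a4, a solute carrier, was 15.3 and 23.1 times higher in periportal cells, and Galnt15, a glycosyltransferase that starts O-linked glycans, 6.06 and 15.7 times. Of the 12 genes Esm1 and Galnt15 were those with a higher level in the members than in Gja5/Nrg1 cells of both libraries, for Galnt15 1.0 and 0.727 UMIs per 10000 against 0.728 and 0.417. Ltbp4, which holds latent TGF-beta in the matrix, stood at 11 and 5.86 in periportal and 3.78 and 1.33 in Kit/Wnt2 cells. Acer2, a Golgi ceramidase, stood at 5.34 and 7.13 against 1.73 and 2.45, Armcx6 at 0.538 and 0.631 against 0.139 and 0.128, and Ddit4, a stress-induced inhibitor of mTORC1, at 0.820 and 0.989 against 0.204 and 0.348. Each of these 6 genes was higher in periportal cells of both libraries, with intervals apart from 1. Without cells holding over 1 UMI of the macrophage genes Clec4f, Vsig4, C1qa and C1qb, which left 46 periportal and 10 Kit/Wnt2 cells of the fibrosis library, the fibrosis ratio turned to 0.836 for Slc45a4, 0.597 for Galnt15 and 0.717 for Armcx6.

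On the other side stood genes that were low in periportal cells. Lhx6, a LIM homeobox factor, stood at 0.0169 and 0.0738 UMIs per 10000 in periportal and 0.60 and 0.894 in Kit/Wnt2 cells. Cdh13, the GPI-anchored T-cadherin, stood at 0.324 and 0.140 against 1.75 and 1.57, and the secretory Rab protein gene Rab3b at 0.0986 and 0.181 against 0.726 and 1.20. The fibrosis ratio of Rab3b turned to 1.07 without cells holding macrophage UMIs, a setting that left 10 Kit/Wnt2 cells. Plpp1, a lipid phosphate phosphatase, stood at 3.70 and 5.49 against 11.3 and 12.1. Gas6, the ligand of TAM receptors, stood at 1.57 and 0.720 against 4.65 and 2.0. Olfm1, the retinoic acid receptor gene Rarb, the Notch-modifying glycosyltransferase gene Lfng, Slco3a1, Jup and Lgals1 had ratios of 0.20 to 0.423 in the normal and 0.293 to 0.444 in the fibrosis library. Lhx6 in normal members (0.0169) was below its level in B and T cells (0.0479), and Lgals1 was higher in B and T cells, at 3.14 and 4.26, than in periportal cells, at 0.938 and 1.88.

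**Figure D3:**
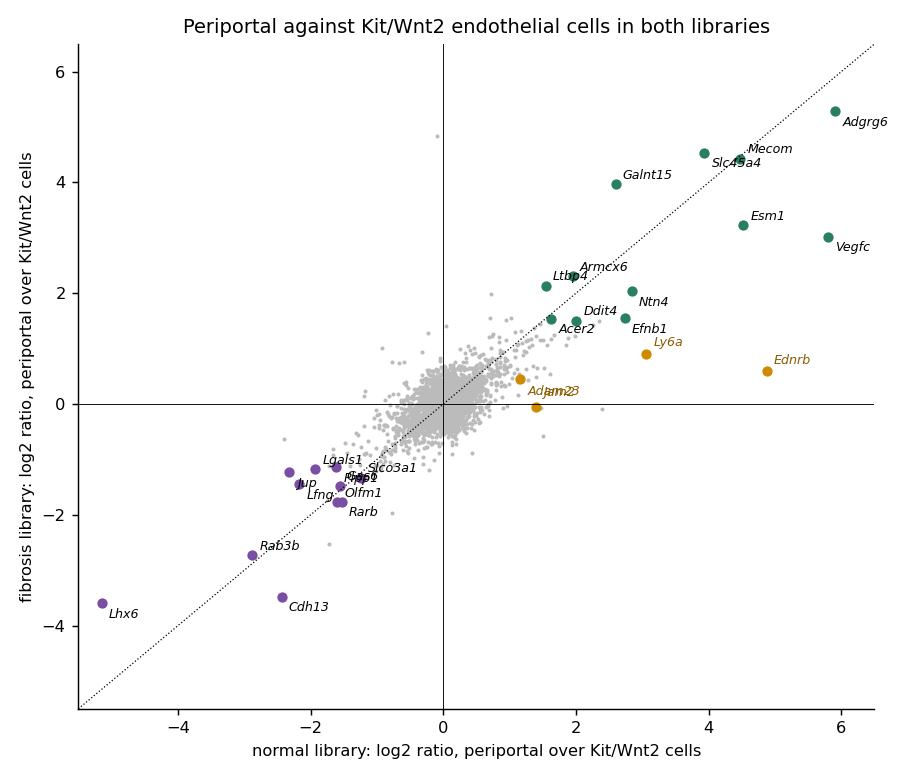
Log2 ratio of periportal over Kit/Wnt2 endothelial cells in the normal (horizontal) and fibrosis (vertical) library, 1 point for each gene at 0.5 UMIs per 10000 or more in the higher set of each library, with the rule's genes left out. Green points are the 12 genes highest in both libraries and purple points the 11 low genes described, from Adgrg6 to Lhx6; orange points are Ednrb, Ly6a, Jam2 and Adam23, which lie below the dotted line of equal ratios.

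The counts for gene lists stand beside shares of 1.66% (normal) and 1.58% (fibrosis) of all genes that were higher in periportal cells. Of 12 arterial and Notch genes read in the normal library 5 were past the limit upwards in periportal cells (Jag1, Ltbp4, Mecom, Nrarp, Sox17) and 1 downwards (Lfng), with a median ratio of 1.73 against 1.01 over all genes. In fibrosis 3 of 13 were higher and 1 lower, with a median of 1.58 against 0.995. Nrarp, a Notch target, stood at 0.966 and 1.01 UMIs per 10000 in periportal and 0.430 and 0.406 in Kit/Wnt2 cells. Of 10 midlobular and pericentral endothelial genes 7 were lower in each library, with medians of 0.352 and 0.449. The scavenger and identity genes of sinusoids differed little: 1 of 16 was higher in normal (Cd36, a fatty acid transporter, at 9.10 against 3.76) and 0 of 16 in fibrosis. Clec4g, a lectin of LSECs, stood at 23.4 and 21.9 in periportal and 23.9 and 21.0 in Kit/Wnt2 cells, and Stab2 at 9.55 and 10.2 against 16.2 and 13.9. Members were thus sinusoidal by these genes, and the large-vessel gene Vwf was low in them, at 0.366 and 0.280 against 6.89 and 8.24 in Gja5/Nrg1 cells.

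Among 10 VEGF, angiopoietin and tip-cell genes of the normal library Adm, Angpt2 and Vegfc were higher in periportal cells, and in fibrosis 1 of 9 (Vegfc). Among 10 axon guidance genes Efna1 and Efnb1 were higher in each library, and Efna1, an ephrin A ligand, stood at 1.54 and 0.945 against 0.613 and 0.453. Of 9 vascular tone genes Edn1, Ednrb and Gucy1b1 were higher and Ramp3 lower in the normal library, and Gucy1b1 was higher and Ramp3 lower among 8 in fibrosis. Gucy1b1, a subunit of the nitric oxide receptor, stood at 0.316 and 0.664 against 0.0217 and 0.174. Among 14 chemokine and cytokine genes of the normal library the alarmin Il33 and the Kit ligand gene Kitl were higher and the scavenging chemokine receptor Ackr3 lower, and in fibrosis 1 of 15 (Il33) was higher and 2 (Ackr3, Ccl2) lower. Kitl stood at 1.71 and 1.97 in periportal and 0.739 and 1.01 in Kit/Wnt2 cells, which the rule chose by that receptor.

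Cell cycle genes were lower in periportal than in Kit/Wnt2 cells of the normal library. Of 15 such genes 11 were past the limit downwards and 0 upwards, with a median ratio of 0.261, and in the fibrosis library 3 of 14 were lower, with a median of 0.638. The proliferation marker Mki67 stood at 0.141 and 0.292 UMIs per 10000 in periportal and at 0.948 and 0.464 in Kit/Wnt2 cells, and at 2.11 and 1.31 in B and T cells. In fibrosis 20 of the 79 Mki67 UMIs and 40 of the 169 Top2a UMIs of the members came from 1 cell. In the normal library 149 genes of all kinds were lower by the limit. Without the 3 cells of each set that held most of a gene's UMIs, 93 were. How far a few Kit/Wnt2 cells held the cell cycle UMIs was not tested. Zonal hepatocyte RNA was read in the same cells. Cyp2f2, which hepatocytes make near portal tracts, stood at 1.77 in normal periportal, 1.64 in Kit/Wnt2 and 1.86 in B and T cells, and Cyp2e1, made near central veins, at 1.29, 1.19 and 1.47. Over all 9 periportal hepatocyte genes read, 0 were past the limit between the endothelial sets of the normal library, and 1 of 6 pericentral ones was (Glul, glutamine synthetase, at 6.41 against 2.42, and 9.62 in Gja5/Nrg1 cells). Of all UMIs of both hepatocyte lists, Glul included, the periportal list took 58.5% (57.5% to 59.5%) in normal periportal cells, 69.3% (68.0% to 70.7%) in Kit/Wnt2 cells, 47.0% in Gja5/Nrg1 cells and 73.0% in B and T cells. In the fibrosis library it took 14.98% (13.7% to 16.3%) in periportal, 13.9% (11.5% to 16.7%) in Kit/Wnt2, 6.76% in Gja5/Nrg1 and 34.6% in B and T cells, so the periportal and Kit/Wnt2 intervals overlapped there. Glul held 6.41 of the summed pericentral level of 10.5 in normal periportal and 2.42 of 6.05 in Kit/Wnt2 cells. The summed periportal levels were 14.8 and 13.7. The difference in share between the normal sets thus cannot be told apart from that in Glul. In neither library do these shares describe hepatocyte RNA alone, and shares without Glul are not given.

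The other lists ranged from none to most of their genes past the limit between the sets. In the normal library the counts upwards and downwards were 5 (Adgrg6, Cd34, Fbln2, Ly6a, Vwf) and 1 (Cav1) of 12 for vessel and continuous endothelial genes, 1 and 0 of 19 for endothelial transcription factors, 0 and 0 of 11 for BMP and TGF-beta genes, 1 and 0 of 10 for basement membrane genes and 2 and 0 of 13 for junction and leukocyte adhesion genes. They were 1 and 0 of 12 for antigen presentation, 1 and 0 of 16 for interferon response, 0 and 1 of 5 for coagulation, 2 and 0 of 10 for lipid handling, 0 and 0 of 16 for immediate early and stress, and 0 and 0 of 10 for antioxidant and metallothionein genes. Lama4, the laminin alpha 4 chain gene, was the basement membrane gene past the limit in both libraries, at 2.09 and 1.20 in periportal and 0.761 and 0.441 in Kit/Wnt2 cells. Mesenchymal and fibrillar matrix genes were 4 and 0 of 9, but 213 of the 398 Dcn UMIs and 71 of the 139 Col3a1 UMIs of normal members came from 1 cell. Of 5 erythroid genes read 4, all globins, were lower in normal periportal than in Kit/Wnt2 cells, and 0 of 10 hepatocyte, 0 of 8 macrophage, 0 of 2 B and T cell and 0 of 2 cholangiocyte markers differed by the limit. Stellate and fibroblast markers were higher for 2 of 3 (Col3a1 and Dcn, the genes with 1 high cell). In fibrosis the counts upwards and downwards were 2 and 0 of 10 for vessel and continuous endothelial genes, 2 and 0 of 15 for mesenchymal and fibrillar matrix genes (median 0.965, against 1.95 in normal) and 0 and 0 of 5 for stellate and fibroblast markers (median 0.864). They were 1 and 0 of 13 for BMP and TGF-beta genes, 0 and 0 of 18 for endothelial transcription factors, 0 and 0 of 13 for junction and leukocyte adhesion genes and 0 and 0 of 11 for lipid handling.

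The share of periportal cells was close in both libraries. They made up 21.9% of endothelial cells in the normal library (20.4% to 23.4%, Clopper-Pearson) and 22.9% in fibrosis (20.8% to 25%), whereas Kit/Wnt2 cells made up 14.1% and 7.81% and Gja5/Nrg1 cells 8.03% and 4.96%. Of all filtered cells, members made up 8.49% (7.86% to 9.14%) and 6.02% (5.44% to 6.64%). The share depended on depth and on the limits: with each cell thinned to 3000 UMIs it was 24.8% and 26.8%. The limit on Cd79a, Cd3e and Cd5l left out 78 of 3024 cells at the endothelial limit in the normal library and 742 of 2448 in fibrosis, and without it the shares were 21.9% and 23.8%, with 651 and 534 members. Among B and T cells the zone limit of 3 UMIs was met by 1.85% (1.20% to 2.71%) in the normal and 9.01% (6.93% to 11.5%) in the fibrosis library. Such shares describe these suspensions, since how many cells of each zone survived digestion was not measured.

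Between libraries, 293 of 7764 genes (3.77%) were higher in fibrosis than in normal periportal cells and 446 (5.74%) lower, with a median ratio of 1.04. All counts for gene lists between libraries given below stand beside these shares of 3.77% and 5.74%. Much of the difference between libraries was shared with other cells. Of the 293 genes 163 were also higher in Kit/Wnt2 cells, where 351 of 7851 (4.47%) were higher and 510 (6.5%) lower, and 160 also in B and T cells, where 1069 of 8264 (12.9%) were higher and 503 (6.09%) lower. Of the 446 genes 352 were also lower in Kit/Wnt2 cells and 335 in B and T cells. The fibrosis members were deeper, and in UMIs per cell every ratio is 1.31 times larger (0.39 on the log2 scale), which gives 806 genes higher and 344 lower. In the shallower B and T cells 962 of 8349 genes were higher and 671 lower, and 168 of the 293 and 369 of the 446 were among them.

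Hepatocyte and red-cell genes were low in every fibrosis set. All 10 hepatocyte genes read were past the limit downwards in the members, with a median ratio of 0.0925, and all 10 in B and T cells, with a median of 0.111. Albumin (Alb) stood at 67.9 and 6.61 UMIs per 10000 in periportal cells and at 76.5 and 8.75 in B and T cells. The 9 periportal hepatocyte genes read were all lower (median 0.0787), as were 3 of 6 pericentral ones and 4 of 4 erythroid markers (median 0.0260). In the other direction 9 of 11 macrophage markers were past the limit upwards, and their summed level went from 5.54 to 17.8 in periportal cells and from 9.25 to 72.0 in B and T cells. For 10 stellate and fibroblast markers, of which 5 of the 7 read were higher and 0 lower (Lrat and Reln, like Cd5l among the macrophage markers, had a part in the rule), the sums were 2.82 and 5.74 in periportal and 4.06 and 39.1 in B and T cells, and 0 of the 10 were at 0 UMIs in the members. Without the genes of the rule 8 of 10 macrophage and 3 of 5 stellate and fibroblast markers read were higher and 0 lower. B and T cell markers (0 higher, 1 lower of 2 read) and cholangiocyte markers (0 higher, 1 lower of 2 read) had summed levels of 1.70 and 1.10, and 2.18 and 1.69.

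Of the 12 genes named for the largest rise, 8 stood lower in fibrosis members than in B and T cells of that library, while Armcx4, Hspa5, Hsp90b1 and Pdia6 stood higher. Gpnmb, a macrophage glycoprotein gene, was not seen in normal members (0 UMIs) and stood at 1.0 in fibrosis members, but at 9.39 in B and T cells of the same library. The fibrosis level was 119 times the floor of 3 UMIs, 0.00845 per 10000, that replaced the count of 0. Col1a1 stood at 0.0930 and 1.33 in periportal and 0.0761 and 7.64 in B and T cells, Col1a2 at 0.231 and 1.54 and at 0.155 and 10.6, and the lipase gene Lpl at 0.161 and 1.77 and at 0.330 and 7.65. The chemokine gene Cxcl2, the complement gene C1qc, the lysozyme gene Lyz2 and Cd5l were likewise 3.45 to 6.81 times higher in fibrosis members, and each stood higher in B and T cells of the fibrosis library, at 3.2 to 20.4, than in the members, at 1.42 to 3.73. The rule limits Cd5l in the members and not in B and T cells. Without the limit on Cd79a, Cd3e and Cd5l the fibrosis members were 534 cells and Cd5l stood at 5.09 and C1qc at 3.80 in them, and each of the 8 genes still stood lower in the members. All 8 also stood lower than in the shallower B and T cells, where Col1a1 was at 2.39. The part of free RNA in the rise was not tested.

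Of 14 mesenchymal and fibrillar matrix genes read, 8 were past the limit upwards and 0 downwards (Acta2, Col1a1, Col1a2, Col3a1, Col5a1, Fn1, Lum, Tagln), with a median ratio of 2.06 over all 14. Over the same genes the median in B and T cells was 19.1. Of all genes 3.77% were higher and 5.74% lower in the members. In Kit/Wnt2 cells 9 of 15 mesenchymal and fibrillar matrix genes were higher and 1 lower, with a median of 4.59, so the rise was not particular to the members. Acta2, the smooth muscle actin gene, held 1 UMI in all normal members and 61 in fibrosis members, 0.00282 and 0.225 per 10000 (ratio 79.9, 13.8 to 3207), against 0.00564 and 0.939 in B and T cells. Tagln, another contractile gene, stood at 0.0113 and 0.203 against 0.0226 and 1.17. Each of these 8 genes stood lower in fibrosis members than in fibrosis B and T cells, although the rule left out cells with over 2 UMIs of Lrat and Reln (206 fibrosis and 51 normal cells at the endothelial limit). Without that limit, an alternative chosen after seeing the data, the fibrosis members were 385 cells, Col1a1 stood at 1.86 and Col3a1 at 1.14 in them, and each of the 8 genes still stood lower than in B and T cells. Against the shallower B and T cells 7 of the 8 stood lower and Fn1 higher, at 2.68 against 1.97. Of the fibrosis members' UMIs of the fibronectin gene Fn1, 301 of 726 came from 1 cell. Vim, which encodes vimentin and is made by endothelial cells too, stood at 5.47 and 6.68 in the members, a ratio of 1.22 (1.14 to 1.30).

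Some chaperone genes of the endoplasmic reticulum were higher in fibrosis members, and part of that rise was also seen in the shallower B and T cells. Hspa5, the chaperone BiP, stood at 5.93 UMIs per 10000 in normal and 22.1 in fibrosis members, 3.72 times higher (3.54 to 3.91), and Hsp90b1, the chaperone GRP94, at 5.98 and 25, 4.18 times higher (3.98 to 4.40). In B and T cells Hspa5 stood at 13.6 in either library and Hsp90b1 at 23.4 and 19.4. After thinning to 2000 UMIs, Hspa5 was seen in 66.0% of normal and 96.4% of fibrosis members, and unthinned in 88.8% and 99.7%. The protein disulfide isomerase gene Pdia6 rose from 1.71 to 6.64 in the members, and stood at 3.40 and 4.27 in B and T cells. The shallower B and T cells differed from the whole set: Hspa5 stood there at 6.38 and 11.2 (ratio 1.76), Hsp90b1 at 5.91 and 14.2 (2.40, 2.25 to 2.56) and Pdia6 at 1.51 and 3.48 (2.31).

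These 3 genes were named by the rule for library differences, and a list of 20 genes of protein folding and transport in the endoplasmic reticulum was drawn up after their values had been seen. Of the 20 genes 10 were past the limit upwards in the members and 0 downwards, with a median ratio of 2.0 and a summed level of 39.6 and 105 UMIs per 10000. The co-chaperone and secreted factor genes Creld2, Sdf2l1 and Manf were 4.49, 3.74 and 3.24 times higher, the oxidative folding and glycoprotein chaperone genes Pdia4, Hyou1 and Calr 2.86, 3.32 and 2.72 times, and Xbp1, a transcription factor of the unfolded protein response, 2.01 times. Atf4 and Ddit3, transcription factors of the stress branch, were at 1.25 and 1.58 times, and the translocon genes Sec61b and Ssr2 at 0.865 and 0.883. Kit/Wnt2 cells were alike, with 11 of 20 higher, 0 lower and a median of 2.25, and in B and T cells 0 were higher and 4 lower, with a median of 0.883. Canx, the chaperone calnexin, had a ratio of 1.99 in the members, which lay inside its interval in B and T cells (1.86 to 2.08), and Calr had a ratio of 1.16 in B and T cells. In the shallower B and T cells 4 of 20 were higher (Hsp90b1, Pdia6, Canx, Creld2) and 0 lower, with a median of 1.27, and the ratio in the members was the larger for 18 of the 20 genes. B and T cells, which include antibody-making cells in unknown number, held more of this RNA in the normal library than the members did (91.3 against 39.6 summed).

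**Figure D4:**
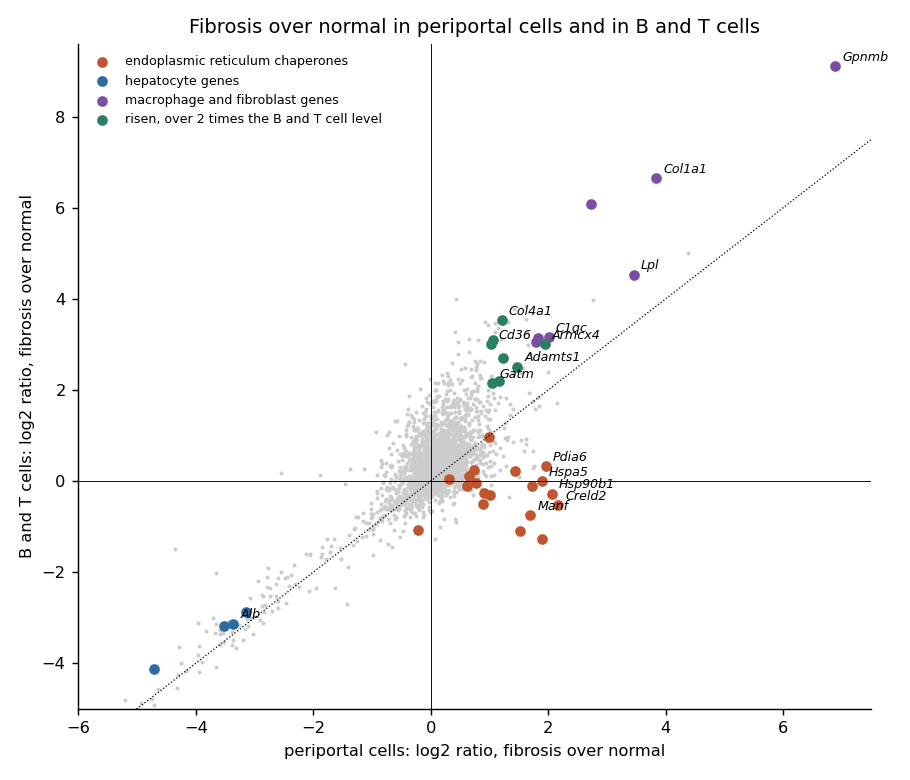
Log2 ratio of fibrosis over normal in periportal cells (horizontal) and in B and T cells (vertical) for genes at 1 UMI per 10000 or more in the members (grey) and named groups at 0.5 or more (colours); the dotted line marks equal ratios. Hepatocyte genes lie low on the line, macrophage and fibroblast genes above it, and the endoplasmic reticulum genes to its right, with Hspa5 at 3.72 times in periportal cells and the same level of 13.6 in B and T cells of either library; all B and T cells are plotted, the deep droplets included.

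A second group was higher in fibrosis members and stood at more than 2 times the level of B and T cells there; this condition was added after values had been seen. It held 8 of the 45 risen genes that reached 1 UMI per 10000 and whose log2 ratio lay at least 1 from that in B and T cells. Cd36 stood at 9.10 and 18.5, 2.03 times higher (1.95 to 2.13), and the matrix protease gene Adamts1 at 3.69 and 10.3, 2.79 times (2.61 to 2.98). The basement membrane collagen genes Col4a1 and Col4a2 stood at 5.29 and 12.2 and at 2.49 and 5.17. Armcx4 (1.14 and 4.39), the intermediate filament gene Nes (0.719 and 1.69), Mest (0.665 and 1.5) and Gatm (6.49 and 13.4), which makes a creatine precursor, complete the group. All 8 also rose in B and T cells, by 4.44 (Gatm) to 11.6 times (Col4a1) from levels of 0.0663 to 0.729, and all 8 also stood at more than 2 times the level of the shallower B and T cells. The part of free RNA in these rises was not tested.

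Few genes at 1 UMI per 10000 or more fell in the members with a log2 ratio at least 1 away from that in B and T cells. There were 9: Cxcl13, S100a8, S100a9, Cdkn1c, C3, Cp, Hspa1b, Atp13a3 and Gas6. For 3 of them 1 normal cell decided the value: the highest cell held 650 of the 663 Cxcl13 UMIs, 555 of the 826 of S100a8 and 641 of the 1074 of S100a9. Cdkn1c, which encodes the cell cycle inhibitor p57, was spread over more cells, with 23 of 453 UMIs in its highest normal cell, and stood at 1.28 and 0.218, 0.171 times (0.128 to 0.224), against 0.365 and 0.162 in Kit/Wnt2 and 0.0592 and 0.0673 in B and T cells. Gas6 stood at 1.57 and 0.720 in the members, a ratio of 0.458, and the ratio in Kit/Wnt2 cells was 0.430. The complement and copper-carrier genes C3 and Cp, also made by hepatocytes, had ratios of 0.270 and 0.366 in the members and 1.09 and 0.964 in B and T cells. The heat shock gene Hspa1b stood at 5.12 and 1.90 in the members and at 5.73 and 0.878 in B and T cells, and Atp13a3 at 1.01 and 0.391 against 15.2 and 16.4 in Gja5/Nrg1 cells.

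Of the 3 periportal genes given for the label that the rule did not use, Esm1 was past the limit between libraries, 2.90 times higher in fibrosis (2.46 to 3.43), while Msr1, Efnb2 and Dll4 chose the cells and are left out here. The rise of Esm1 was not particular to the members. It went from 0.0800 to 0.601 in endothelial cells with 0 UMIs of those 3 genes, and was also higher in fibrosis Kit/Wnt2 and Gja5/Nrg1 cells, as given above. Ntn4 had a ratio of 0.744 (0.703 to 0.787) and Adam23 of 0.933, which is 1.22 in UMIs per cell. Most identity genes of the sinusoid did not pass the limit between libraries, but neither did most genes: 3.77% of all genes read were higher and 5.74% lower. Of 16 scavenger and identity genes 2 were past the limit upwards (Cd36, Lyve1) and 0 downwards, with a median ratio of 1.06 against 1.04 over all genes. Stab2 stood at 9.55 and 10.2, the mannose receptor gene Mrc1 at 17.1 and 20.3 and Clec4g at 23.4 and 21.9. The hyaluronan receptor gene Lyve1 stood at 3.63 and 7.72, 2.13 times higher (1.98 to 2.28), with median levels per cell of 0 and 5.09. In B and T cells 9 of 17 scavenger and identity genes, Lyve1 and Cd36 among them, were higher and 0 lower, with a median of 2.18. Lyve1 stood there at 0.213 and 0.625. Of 11 vessel and continuous endothelial genes Cd34, a sialomucin gene of capillarized endothelium, was higher, at 0.321 and 1.44 (4.47 times, 3.62 to 5.56), and the matrix gene Fbln2 lower, at 0.310 and 0.129. Cd34 reached 0.0846 and 0.278 in B and T cells and 1.47 and 3.49 in Gja5/Nrg1 cells. Of 19 endothelial transcription factor genes 0 were higher and 1 was lower (Lmo7, 0.209 and 0.0960), and Maf and Gata4, factors of sinusoidal identity, stood at 28.8 and 26.0 and at 2.5 and 2.41.

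Structural and signalling lists differed in how many members passed. Of 10 basement membrane genes 4 were higher (Col4a1, Col4a2, Lamc1 and the matricellular gene Sparc, 11 and 23.7) and 1 lower (Col18a1, 0.330 and 0.0406), with a median of 1.57. In B and T cells 9 of 10 were higher, Lamc1 and Sparc among them, and Col18a1 was lower, with a median of 8.71, or 4.28 over the genes read in the members. Of 13 junction and leukocyte adhesion genes the adhesion receptor genes Cd44 and Vcam1 were higher and 0 lower, and Vcam1 stood at 1.42 and 3.54 in the members and 0.219 and 2.48 in B and T cells. None of 13 arterial and Notch genes was past the limit in either direction (median 1.04), although Ltbp4, at 0.532 times (0.502 to 0.564), and Jag1, at 0.519, lay close to it and the gap junction gene Gja4, at 1.98, lay close on the other side. The counts were also 0 and 0 of 10 for VEGF, angiopoietin and tip-cell genes without Kdr, Flt4 and Ptprb, which set the endothelial limit (median 0.988), of 12 for BMP and TGF-beta genes (0.910) and of 10 for axon guidance genes (0.985). Kdr, the main VEGF receptor gene, stood at 20.8 and 28.4, 1.37 times higher (1.32 to 1.41), but it had a part in choosing the cells.

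Of 10 cell cycle genes read, 8 were past the limit upwards and 0 downwards, with a median of 2.35. Without the 1 fibrosis cell that held most UMIs of each gene, a setting chosen after seeing the data, 5 of 10 were past it and the median was 1.97: Mki67 went from 2.07 to 1.56, Top2a from 2.43 to 1.87 and Ube2c from 2.96 to 1.93. When the highest normal cell was left out too, 7 of 10 were past it. The 5 included Ccnd1, the cyclin D1 gene of entry into the cycle, at 3.32 and 8.80, and Cdkn1a, the gene of the inhibitor p21, at 1.74 and 3.95. Ccnd1 stood at 0.691 and 2.08 in B and T cells. In the shallower B and T cells 8 of 13 cell cycle genes were higher and 0 lower, with a median of 2.78, against 2 of 16 and 1.32 in all of them. Of 16 immediate early and stress genes Hsp90aa1 and Nr4a1 were higher (2.43 and 3.35 times) and Hspa1a and Hspa1b lower (0.322 and 0.371 times). The counts upwards and downwards were 0 and 1 of 14 for chemokines and cytokines (Tnfsf10 lower), 0 and 1 of 12 for antigen presentation (Cd1d1 lower), 0 and 1 of 16 for interferon response (Igtp lower) and 2 and 1 of 6 for coagulation (Entpd1 and Ptafr higher, Proc lower). They were 1 and 0 of 8 for vascular tone (Gucy1b1), 2 and 0 of 11 for lipid handling (Cd36, Lpl), 1 and 0 of 11 for antioxidant genes (Hmox1) and 2 and 1 of 8 for midlobular and pericentral genes (Gatm and Lgals1 higher, Cdh13 lower).

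Some genes of the periportal side stood closer to Kit/Wnt2 cells in fibrosis than in the normal library. Ednrb, an endothelin receptor gene, stood at 3.96 and 4.86 UMIs per 10000 in periportal cells and at 0.135 and 3.21 in Kit/Wnt2 cells, so that the ratio between the sets went from 29.4 (20.6 to 43.4) to 1.51 (1.33 to 1.73). Its ratio of fibrosis over normal was 23.9 (16.4 to 35.8) in Kit/Wnt2 and 1.23 (1.14 to 1.32) in periportal cells, 4.44 in B and T cells, where it stood at 0.336 and 1.49. Ly6a, a surface antigen gene of larger vessels, stood at 7.73 and 5.70 in periportal and 0.930 and 3.03 in Kit/Wnt2 cells, and the junction gene Jam2 at 4.30 and 3.23 and at 1.63 and 3.35. Efnb1 and Ntn4 followed the same course, with ratios of fibrosis over normal of 0.730 and 0.744 in periportal and 1.66 and 1.30 in Kit/Wnt2 cells. In UMIs per cell the periportal ratios of Ly6a, Jam2, Efnb1 and Ntn4 were 0.958 to 0.985 and those of Kit/Wnt2 cells 1.58 to 3.95, so on that scale the members' levels were close in both libraries and the difference between the sets was still narrower in fibrosis. Not all genes narrowed: Thbd, the thrombomodulin gene, stood at 1.77 and 1.66 in periportal and 3.00 and 6.5 in Kit/Wnt2 cells, and Ltbp4 was lower in fibrosis in both.

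**Figure D5:**
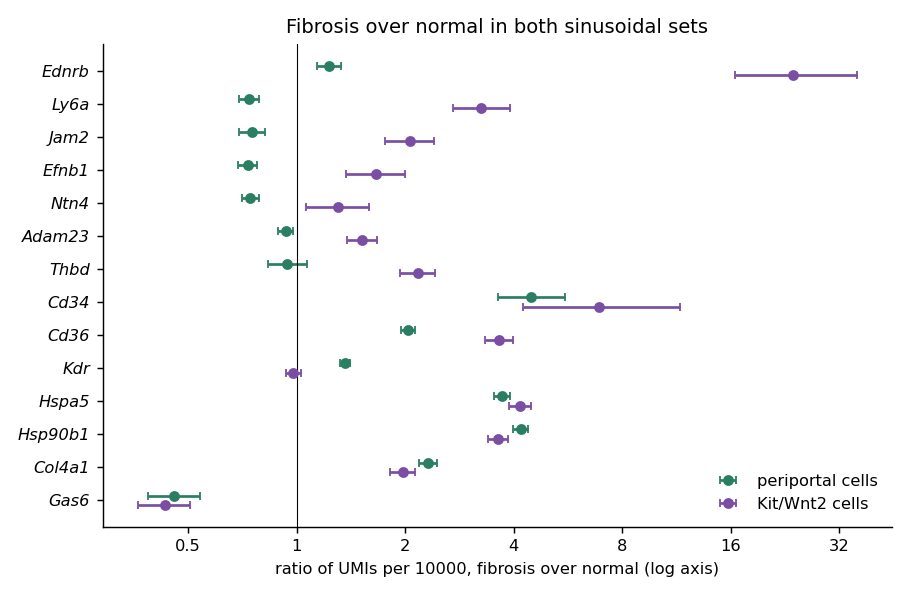
Ratio of UMIs per 10000 in fibrosis over normal (log axis) for 14 genes in periportal (green) and Kit/Wnt2 (purple) cells, with exact conditional 95% intervals for counting error. Ednrb (1.23 and 23.9), Ly6a, Jam2, Efnb1 and Ntn4 differ between the sets, while Hspa5, Hsp90b1 and Gas6 lie close together.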

How the data were processed

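Per the labels, liver non-parenchymal cells were loaded on the 10x Genomics Chromium (3′ kit, version 3), and the submitters' processing notes name Cell Ranger 3.0.1 and mm10. The deposited tables hold raw UMI counts for each gene and cell, made by the authors, which sum to 44062632 UMIs (normal) and 53288463 UMIs (fibrosis). The study's methods state that doublets were excluded with Scrublet, but the deposited tables hold all 8130 and 6437 cells the study counts, and no doublet was removed here.

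Counts were summed over each cell set and divided by the set's total. Levels have exact Poisson, ratios exact conditional and shares Clopper-Pearson 95% intervals, for counting error only. A count of 0 was replaced by a floor of 3 over the set in a ratio. With 1 library for each condition no test was made. Python 3.11.15, NumPy 2.4.6, SciPy 1.17.1, pandas 2.3.3 and Matplotlib 3.10.9 were used. The calls were tried on sums simulated from the Poisson model that the intervals assume. That trial checks the code only, because it leaves out the uneven spread of UMIs over cells. Counts near the 3′ end do not allow levels of different genes to be compared.

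Named genes were the periportal markers, the 12 largest and 12 smallest ratios of each contrast (at 1 UMI per 10000 between libraries, with a log2 ratio at least 1 away from that in B and T cells, and at 0.5 between cell sets of both libraries), and members of each list at the ends of its levels and ratios. Mitochondrial, ribosomal, globin and unnamed genes were left out. A result of 1 named gene is not reported here. The cells, gene lists and comparisons were chosen with earlier results of these data known. The list of endoplasmic reticulum genes, the limit of 2 times the B and T cell level, the settings without the limit on Cd79a, Cd3e and Cd5l or on Lrat and Reln, and the shallower B and T cells were added after seeing the data. Alternatives were limits of the rule, depth, scaling, level floors and fold limits.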

Additional observations from a re-analysis of the deposited data

Results flagged for a closer look

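Of 296 genes looked at, 9 went one way in periportal cells and the other way in Kit/Wnt2 endothelial cells between the normal and the fibrosis library, each by at least 1.25 times. The difference was not tested, since each condition has 1 library. The ratio of the 2 fibrosis-over-normal ratios (periportal over Kit/Wnt2, with a counting interval) was 0.146 (0.0360 to 0.592) for Vegfc, 0.226 (0.187 to 0.274) for Ly6a, 0.365 (0.307 to 0.434) for Jam2, 0.440 (0.363 to 0.535) for Efnb1 and 0.572 (0.467 to 0.700) for Ntn4. These 5 genes were lower in periportal and higher in Kit/Wnt2 cells of the fibrosis library per 10000 UMIs. In UMIs per cell their periportal ratios were 0.958 to 1.02. The value for Vegfc rests on 3 normal and 6 fibrosis UMIs in Kit/Wnt2 cells, 0.0130 and 0.0696 per 10000, which is below the 0.0522 and 0.163 of B and T cells.

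The other 4 genes were higher in periportal and lower in Kit/Wnt2 cells, with ratios of 2.64 for Cd74, 2.88 for H2-Eb1, 3.42 for Top2a and 4.22 for Mki67. In each of them 1 periportal cell held a large part of the gene's UMIs in a library: 25.3% for Cd74, 29.4% for H2-Eb1, 23.7% for Top2a and 25.3% for Mki67.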

How the results depend on the processing

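No paired analysis was possible because each condition has 1 library. The periportal share of endothelial cells, 21.9% normal and 22.9% fibrosis, was 25.6% and 27.3% with a limit of 2 zone UMIs, 18.8% and 19.8% with 4, 19.9% and 18.8% with an endothelial limit of 15 UMIs per 10000, 24.8% and 26.8% after thinning to 3000 UMIs, and 11.7% and 11.9% by Efnb2 and Dll4 alone. In fibrosis it was 27.5% with an endothelial limit of 40 and 19.2% with a mitochondrial limit of 5%. The order of the 2 libraries was thus turned with the endothelial limit of 15 and the mitochondrial limit of 5%.

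Genes past the limit between libraries (739) came to 1150 in UMIs per cell, 211 at a level floor of 1, 1706 with no floor and 1703 at a fold of 1.5. Between periportal and Kit/Wnt2 cells, 276 normal and 237 fibrosis genes came to 82 and 53 at a floor of 1, 430 and 358 at 0.1, 713 and 449 with no floor, 714 and 654 at a fold of 1.5, and 663 and 452 with the mitochondrial limit of 5%, which left 9 Kit/Wnt2 fibrosis cells. After thinning to 3000 UMIs the fibrosis count was 155. The other 47 of 74 such values stayed within their limits.

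Of the named genes' values 972 stayed close, 192 moved and 11 turned direction. With the mitochondrial limit of 5% the ratio of fibrosis over normal turned to 1.21 for Cxcl13 and 1.05 for Msr1, and in UMIs per cell to 1.20 for Msr1 and 1.22 for Adam23. Without cells holding over 1 UMI of Clec4f, Vsig4, C1qa and C1qb, which left 46 periportal and 10 Kit/Wnt2 fibrosis cells, that ratio was 3.25 for Cxcl13 and 1.05 for Adam23, and the fibrosis ratio of periportal over Kit/Wnt2 cells was 0.836 for Slc45a4, 0.756 for Vegfc, 0.597 for Galnt15, 0.717 for Armcx6 and 1.07 for Rab3b. The causes were not tested.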
